A study of Mus musculus with 58 samples.

Results

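The 6 liver libraries described here came from mice that received no chlorinated solvent. They form the vehicle arms of a dosing study of perchloroethylene (PCE) and trichloroethylene (TCE), and they were chosen by tissue, dose and chemical series alone: 3 libraries labelled PCE at dose 0, numbered 16 to 18 in the titles, and 3 labelled TCE at dose 0, numbered 1 to 3. They are 6 of the 58 libraries of the series, and are called PCE vehicle 1 to 3 and TCE vehicle 1 to 3. By the labels' protocols the animals of both groups were male B6C3F1/J mice, 5 to 6 weeks old on arrival, that were gavaged once with 5 mL/kg of saline holding 5% of the emulsifier Alkamuls El-620, between 7 and 9 h. The strain field of the same labels gives C57BL/6 instead. By these labels the groups share strain, sex, vehicle and dosing hours, and the label that sets them apart is the solvent series they were the controls of. The labels do not say whether the replicates came from separate animals or when tissue was taken, so a p-value here weighs a difference against the spread of samples that may be technical. The comparison asks which liver functions differ between the vehicle groups, and which differ between livers that carry the same label.

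Liver makes most plasma proteins, and in the acute phase response interleukin-6 and related cytokines act on hepatocytes through STAT3, NF-kB and C/EBP factors to raise serum amyloid A, haptoglobin and other defence proteins, while many drug-metabolizing cytochromes fall. Liver transcripts also follow feeding, the circadian clock, pulses of growth hormone that act through STAT5, glucocorticoids, and heat or protein stress. Each of these axes was read through a gene list.

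The 6 libraries held 88048143 to 118064716 counts assigned to genes, against 30932385 to 125880542 in the 23 dosed liver libraries and 23247565 to 32420329 in the 29 kidney libraries. Gene levels are given as CPM, counts scaled to a common library size with edgeR's trimmed mean of M values. Markers of hepatocytes were high in all 6: albumin (Alb) lay at 77600, 78200 and 79000 CPM in PCE vehicle 1 to 3, and at 73200, 93100 and 72300 CPM in TCE vehicle 1 to 3. In a check for a library deposited more than once, chi-square per degree of freedom was 177 or more for every pair, so all 6 were counted. Pairs with the same label were among the closest and among the farthest. TCE vehicle 2 and TCE vehicle 3 differed by more than 2-fold at 497 of 13155 genes, the fewest of any pair, and TCE vehicle 1 and TCE vehicle 2 at 2378 genes, while PCE vehicle 2 and PCE vehicle 3 did so at 3367. Between the groups the counts ran from 573 genes, for PCE vehicle 3 and TCE vehicle 2, to 3384, for PCE vehicle 2 and TCE vehicle 3. PCE vehicle 2 and TCE vehicle 1 stood apart from the other 4 libraries on the first principal component, which held 57.5% of the variance, with scores of -69 and -39.2 against -0.934 to 39.4.

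Between the vehicle groups, 0 of 13155 genes passed edgeR's quasi-likelihood test at a Benjamini-Hochberg adjusted p of 0.05, and the smallest adjusted p was 0.0713. At an unadjusted p under 0.05 there were 1319 genes, 10.0% of those tested, of which 680 were higher and 639 lower in PCE vehicle livers. DESeq2 called 139 genes on the same counts, 67 higher (0.509% of all genes) and 72 lower. TCE vehicle 2 bore on this count: without it edgeR called 97 genes, 31 higher and 66 lower. Without PCE vehicle 1 it called 13 genes, all lower, 0.0990% of those tested, and with the length and GC slopes of the libraries as covariates 7 higher and 7 lower, 0.0532% in each direction. The genes nearest the threshold in edgeR, named for their small p and not as calls, were of mixed function. Slc13a5, the citrate importer of hepatocytes, was at 0.348, 0.572 and 0.481 CPM in PCE vehicle livers, against 10.9, 0.66 and 9.96 CPM in TCE vehicle livers, a log2 fold change of -3.94 ± 0.67 (SE, n = 3 each, edgeR adjusted p = 0.0713). TCE vehicle 1 and 3 were high and TCE vehicle 2 lay just above the PCE vehicle range. Mpeg1, a pore-forming protein of macrophages, was at 23.1, 23.3 and 19.7 CPM in PCE vehicle livers and at 76.4, 28.9 and 128 CPM in TCE vehicle livers, again with TCE vehicle 1 and 3 high.

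Of the genes nearest the threshold in the other direction, 3 are described. Chpt1, a choline phosphotransferase of phosphatidylcholine synthesis, was at 61.5, 41.2 and 55.3 CPM in PCE vehicle livers, against 26, 29.6 and 21.9 CPM in TCE vehicle livers, a log2 fold change of 1.03 ± 0.21 (SE, n = 3 each, edgeR adjusted p = 0.103). The Chpt1 count is a sum over 3 transcripts. Tbp, the TATA-binding protein, was at 11.8, 12.9 and 11.4 CPM in PCE vehicle livers and at 7.77, 8.67 and 7.89 CPM in TCE vehicle livers. Ppil4, a peptidyl-prolyl isomerase, was at 20.9, 21.5 and 21 CPM in PCE vehicle livers and at 14.1, 15.1 and 14.2 CPM in TCE vehicle livers. The groups of these 3 genes did not overlap, which held for 696 genes in this direction, 5.29% of those tested, and for 499 genes, 3.79%, in the other.

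The spread within the groups was wider in vehicle livers than in vehicle kidneys, and its place against dosed livers was not settled. The SD of log2 CPM, computed within each group and pooled over the groups, had a median of 0.355 over all genes, against 0.314 over the dosed liver groups and 0.159 over the kidney vehicle groups. It exceeded 1 in 677 genes, 5.15% of those tested, against 222 genes (1.69%) in dosed livers and 185 of 14195 genes (1.30%) in vehicle kidneys. Among genes averaging at least 10 CPM the counts were 84 of 5752 (1.46%) in vehicle livers, 25 of 5753 (0.435%) in dosed livers and 12 of 7299 (0.164%) in vehicle kidneys. Without PCE vehicle 2 the median over vehicle livers was 0.302, with 463 genes above 1. Without TCE vehicle 1 it was 0.305, with 505 genes. Both medians lay below that of dosed livers, and both counts above theirs. The SDs rest on 6 libraries in vehicle livers and 23 in dosed livers. An SD from fewer libraries has a lower median and a wider scatter. This was not allowed for, so the values do not rank vehicle against dosed livers. Without both libraries, an alternative chosen after seeing the data, the median was 0.189, with 145 genes above 1. Kidney libraries were read at lower depth, and the part of depth in these counts was not tested. Of 27 function lists, the acute phase proteins had both the widest spread and the largest group difference. The steadiest were bile acid synthesis and transport, and complement and coagulation, each with a median log2 SD of 0.29, and the zonation genes, with 0.30 against 0.36 over all genes tested.

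**Figure D1:**
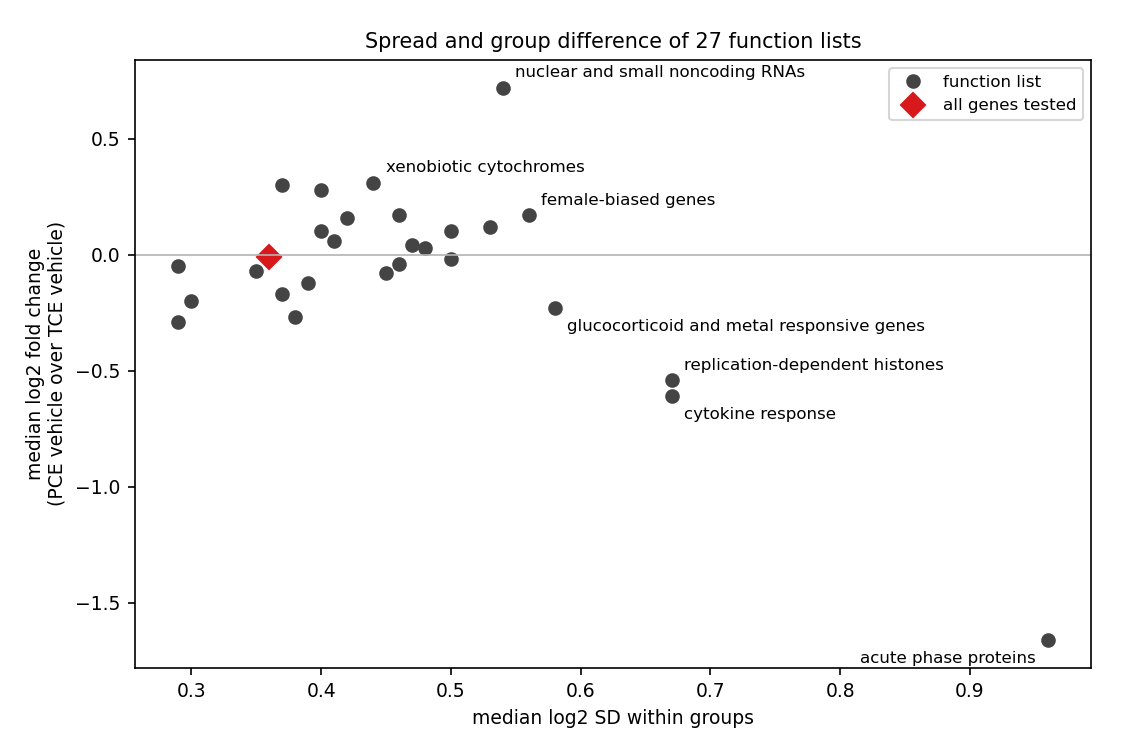
Each point is a function list, at the median log2 SD of its members within vehicle groups (x axis) and the median log2 fold change of PCE vehicle over TCE vehicle livers (y axis); the diamond is the median over all 13155 genes. The acute phase list lies alone at a log2 SD of 0.96 and a log2 fold change of -1.66, and most other lists lie near the diamond.

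All 23 members of the acute phase list were measured and tested, 0 passed edgeR's test, and all 23 fold changes were negative, with a median log2 fold change of -1.66 against -0.01 over all genes. At an unadjusted p under 0.05, 21 of 23 were lower in PCE vehicle livers, against 4.86% of all genes, and 0 were higher. DESeq2 called 16 of the 23 lower, against 0.547% of all genes. These counts rest on a pair of libraries: TCE vehicle 1 and TCE vehicle 3 were the highest libraries in 22 of the 23 genes, against 6.18% of all genes, and TCE vehicle 2 was the lowest of the 6 libraries in 10. The exception was ceruloplasmin (Cp), for which PCE vehicle 2 and TCE vehicle 1 were highest. The summed level of the list was 24800, 27800 and 23100 CPM in PCE vehicle livers, against 154000, 22200 and 91700 CPM in TCE vehicle livers. The groups overlapped in all but 4 members: the lipopolysaccharide-binding protein Lbp, the protease inhibitors Serpina3n and Serpina3m, and Itih4, an inter-alpha-trypsin inhibitor chain. These 4 were lower in PCE vehicle livers, and 3.79% of all genes were lower without overlap. Without TCE vehicle 2, edgeR called 16 of the 23 lower, against 0.503% of all genes, and the median log2 fold change was -2.16. Without TCE vehicle 1 it was -1.16 and without TCE vehicle 3 it was -1.74, with 0 called in both cases.

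The serum amyloid A genes, whose proteins ride on high-density lipoprotein and are the most inducible of mouse liver, were 3 of the 5 most variable genes among those averaging 10 CPM or more. Their start regions are shown because these genes define the pattern. They are RefSeq sequences of build GRCm38.p6, at chr7:46742931-46743230 (minus strand) for Saa1, chr7:46751583-46751882 (plus strand) for Saa2 and chr7:46715627-46715926 (minus strand) for Saa3. Each runs from 250 bases before to 50 bases after the start of transcription in the direction of the gene, and matches to the C/EBP core TTGCNNAA on either strand are in capitals.
Saa1: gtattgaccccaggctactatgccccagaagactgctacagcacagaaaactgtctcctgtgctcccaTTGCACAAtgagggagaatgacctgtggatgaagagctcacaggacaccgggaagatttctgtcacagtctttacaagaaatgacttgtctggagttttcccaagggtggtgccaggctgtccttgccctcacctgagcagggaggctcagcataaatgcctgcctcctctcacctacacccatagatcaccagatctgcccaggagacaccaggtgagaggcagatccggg
Saa2: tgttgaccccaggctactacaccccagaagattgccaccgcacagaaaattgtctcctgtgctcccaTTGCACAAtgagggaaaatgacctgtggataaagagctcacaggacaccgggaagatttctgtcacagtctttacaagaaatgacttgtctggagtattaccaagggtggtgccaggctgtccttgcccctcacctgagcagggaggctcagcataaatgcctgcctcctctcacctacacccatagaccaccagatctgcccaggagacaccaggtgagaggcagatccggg
Saa3: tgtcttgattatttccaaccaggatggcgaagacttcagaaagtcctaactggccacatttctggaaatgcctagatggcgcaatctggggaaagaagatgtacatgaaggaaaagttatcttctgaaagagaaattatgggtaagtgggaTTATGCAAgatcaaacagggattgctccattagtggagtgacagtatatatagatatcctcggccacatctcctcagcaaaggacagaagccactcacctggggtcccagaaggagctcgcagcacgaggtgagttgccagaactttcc
Each window held 1 match, where 10.8% of the 32851 promoter windows of the same length held any. The match began at position -182 from the start in Saa1, -183 in Saa2 and -99 in Saa3. A match is a description of the letters and not evidence of binding.

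Saa2 stood at 14.8, 311 and 31.2 CPM in PCE vehicle livers, against 21300, 22.7 and 12000 CPM in TCE vehicle livers. Its 6 values span 1440-fold, with TCE vehicle 1 and 3 high and PCE vehicle 2 between them and the rest. The log2 fold change was -6.54 ± 2.01 (SE, n = 3 each, edgeR adjusted p = 0.235). Saa1 followed it, at 103, 606 and 170 CPM in PCE vehicle livers and 19600, 104 and 11300 CPM in TCE vehicle livers. Saa3, which macrophages and other cells also express, was at 2.74, 5.13 and 2.23 CPM in PCE vehicle livers and 427, 2.15 and 130 CPM in TCE vehicle livers. Saa1 and Saa2 are near-identical copies, so reads could be split between them or left out as ambiguous.

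Other members repeated the order of libraries over a wide range of levels. Lcn2, the siderophore-binding lipocalin, was at 2.92, 11.4 and 5.06 CPM in PCE vehicle livers, against 1710, 4.25 and 927 CPM in TCE vehicle livers. Its log2 fold change of -7.09 ± 1.75 (SE, n = 3 each, edgeR adjusted p = 0.149) was the largest of the list. The orosomucoid Orm2 was at 20.8, 47.5 and 22 CPM in PCE vehicle livers and 1470, 12.5 and 742 CPM in TCE vehicle livers. Haptoglobin (Hp), which binds free hemoglobin, was at 4290, 7130 and 4270 CPM in PCE vehicle livers and 33000, 3930 and 16000 CPM in TCE vehicle livers. Hemopexin (Hpx), which binds free heme, was at 4710, 5260 and 3960 CPM in PCE vehicle livers and 26700, 4390 and 16500 CPM in TCE vehicle livers. In each of these genes TCE vehicle 2 lay among the PCE vehicle livers or below them, apart from the other TCE vehicle livers. Fibrinogen beta (Fgb), the clotting protein, differed less, at 5190, 4750 and 5210 CPM in PCE vehicle livers and 15800, 4620 and 10800 CPM in TCE vehicle livers. The smallest fold change was that of C-reactive protein (Crp), at 402, 282 and 436 CPM in PCE vehicle livers and 640, 387 and 552 CPM in TCE vehicle livers.

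The high values were rare in the series. Of the 23 livers dosed with either solvent, 1 exceeded the 11300 CPM of Saa1 in TCE vehicle 3, and 0 exceeded TCE vehicle 3 for Saa2, Saa3, Lcn2, Orm2 or Hp. The median of the dosed livers was 237 CPM for Saa1 and 5460 CPM for Hp. Kidney libraries of the same numbers held little Saa1: 0 and 0.0319 CPM in PCE vehicle kidneys 1 and 2, against 0.219, 3.9 and 0.219 CPM in TCE vehicle kidneys 1 to 3, so that TCE vehicle 2 was the highest kidney and among the lowest livers. That kidney library was also highest for hepatocyte transcripts, and their part in its Saa1 level was not tested: Alb was at 9.09 and 11.8 CPM in PCE vehicle kidneys, against 7.04, 82.7 and 21.7 CPM in TCE vehicle kidneys. Of the 23 acute phase genes, 18 were tested in kidney, and 0 passed edgeR's test. At an unadjusted p under 0.05, 6 of the 18 were lower in PCE vehicle kidneys and 0 higher. Over genes tested in both tissues 501 of 12473 were lower. The median log2 fold change of the 18 was -1.18, and that of 11 hepatocyte markers in kidney was -1.2.

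**Figure D2:**
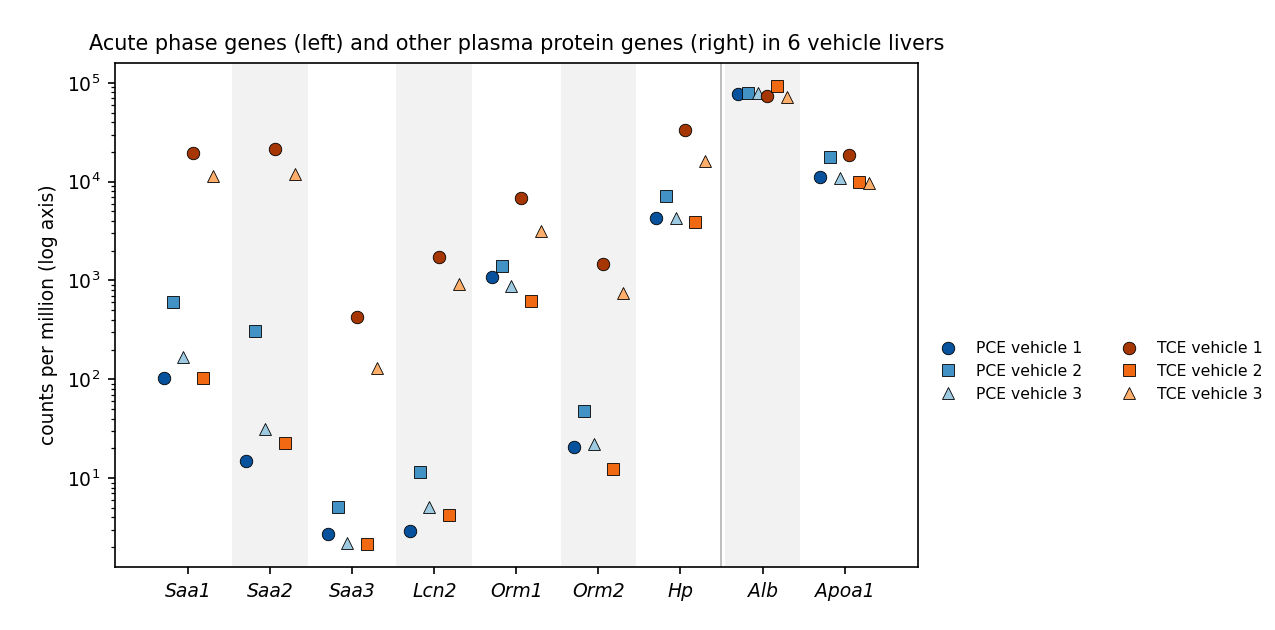
CPM on a log axis for 7 acute phase genes and 2 other plasma protein genes in each of 6 vehicle livers, with PCE vehicle libraries in blue and TCE vehicle libraries in orange. TCE vehicle 1 and 3 stand above the other 4 libraries for each acute phase gene, and Alb lies between 72300 and 93100 CPM in all 6.

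Genes of cytokine signalling differed less between the groups than the acute phase genes. Of 19 genes listed, 15 were tested, and 4 were lower in PCE vehicle livers at an unadjusted p under 0.05, against 4.86% of all genes, with a median log2 fold change of -0.61. Socs3, the feedback inhibitor of interleukin-6 signalling, was at 8.77, 10.6 and 4.94 CPM in PCE vehicle livers, against 35.3, 5.29 and 13.6 CPM in TCE vehicle livers. Cxcl1, a neutrophil chemokine, was at 6.82, 13.8 and 4.44 CPM in PCE vehicle livers and 68.6, 7.65 and 17.9 CPM in TCE vehicle livers. In both genes TCE vehicle 1 and 3 were highest and the groups overlapped. Of 33 complement and coagulation genes, 9 were lower in PCE vehicle livers at an unadjusted p under 0.05 and 8 did not overlap, against 4.86% and 3.79% of all genes. C3, the central complement protein, was at 8740, 5240 and 9050 CPM in PCE vehicle livers and 13600, 9830 and 17700 CPM in TCE vehicle livers.

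Macrophage markers were also highest in TCE vehicle 1. All 13 were tested and all 13 fold changes were negative, with a median log2 fold change of -0.72, and 2 were lower in PCE vehicle livers at an unadjusted p under 0.05, against 4.86% of all genes. Their summed level was 165, 337 and 101 CPM in PCE vehicle livers, against 495, 148 and 292 CPM in TCE vehicle livers. TCE vehicle 1 was highest for 12 of the 13 and PCE vehicle 3 lowest for 13 of 13. Clec4f, a lectin of Kupffer cells, was at 48.5, 107 and 28.8 CPM in PCE vehicle livers and 128, 43 and 73.9 CPM in TCE vehicle livers. By the summed level PCE vehicle 2 lay above TCE vehicle 3. Mpeg1, which is outside the list, had the opposite order, at 23.3 CPM in PCE vehicle 2 and 128 CPM in TCE vehicle 3. Of 12 neutrophil markers 4 passed the filter on low counts, S100a8, Elane, Cxcr2 and Mmp9, with a summed level over these 4 of 1.01, 2.21 and 0.526 CPM in PCE vehicle livers and 2.89, 1.06 and 1.59 CPM in TCE vehicle livers. In kidney 7 macrophage markers were tested, with a median log2 fold change of -0.72, and 0 passed edgeR's test. At an unadjusted p under 0.05, 5 of the 7 were lower in PCE vehicle kidneys, against 501 of 12473 genes, and 0 higher. In bulk tissue a difference in the number of cells of a type and a difference in RNA per cell cannot be told apart, and the part of macrophages in the acute phase pattern was not tested.

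Many genes of drug metabolism were lowest in the libraries with the highest acute phase levels. Of 29 xenobiotic cytochrome genes tested, 7 were higher and 1 lower in PCE vehicle livers at an unadjusted p under 0.05, against 5.17% and 4.86% of all genes, and the median log2 fold change was 0.31. TCE vehicle 1 and 3 were the lowest libraries in 13 of the 29, against 6.35% of all genes. Cyp3a11, the main drug-oxidizing cytochrome of its family in mouse liver, was at 4980, 4660 and 4170 CPM in PCE vehicle livers, against 2010, 3650 and 1630 CPM in TCE vehicle livers, a log2 fold change of 0.92 ± 0.24 (SE, n = 3 each, edgeR adjusted p = 0.152). Cyp2c54 was at 358, 378 and 367 CPM in PCE vehicle livers and 202, 266 and 144 CPM in TCE vehicle livers. The groups of both genes did not overlap. Cyp3a13 went against them, at 96.9, 76.2 and 95 CPM in PCE vehicle livers and 165, 111 and 170 CPM in TCE vehicle livers. Cyp2e1, which oxidizes TCE, was at 6010, 5020 and 5980 CPM in PCE vehicle livers and 7580, 6710 and 4770 CPM in TCE vehicle livers, which overlap. Without TCE vehicle 2, edgeR called 4 of the 29 higher, against 0.236% of all genes.

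Of 24 glutathione and NRF2 genes tested, 6 were higher and 1 lower in PCE vehicle livers at an unadjusted p under 0.05, against 5.17% and 4.86% of all genes. TCE vehicle 1 and 3 were the lowest pair in 11, against 6.35% of all genes. Gsta2, a glutathione transferase of the alpha class, was at 16.2, 13.2 and 12.7 CPM in PCE vehicle livers, against 3.27, 8.95 and 1.66 CPM in TCE vehicle livers. Hepcidin (Hamp), the iron-regulating hormone that interleukin-6 is known to induce, had its lowest values in TCE vehicle 1 and 3, the libraries high in serum amyloid A. It was at 695, 1590 and 640 CPM in PCE vehicle livers and 396, 590 and 115 CPM in TCE vehicle livers, with no overlap between the groups. Hamp has a near copy, Hamp2, as Gsta2 has Gsta1, so reads of each may be shared between copies.

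Mt1 and Mt2, zinc-binding proteins induced by metals and by glucocorticoids, had the widest spread among genes averaging 10 CPM or more after 5 acute phase genes and Moxd1. Their start regions are shown (chr8:94178839-94179138 for Mt1 and chr8:94172368-94172667 for Mt2, plus strand) with the metal response element cores TGCGCNC and TGCACNC, on either strand, in capitals.
Mt1: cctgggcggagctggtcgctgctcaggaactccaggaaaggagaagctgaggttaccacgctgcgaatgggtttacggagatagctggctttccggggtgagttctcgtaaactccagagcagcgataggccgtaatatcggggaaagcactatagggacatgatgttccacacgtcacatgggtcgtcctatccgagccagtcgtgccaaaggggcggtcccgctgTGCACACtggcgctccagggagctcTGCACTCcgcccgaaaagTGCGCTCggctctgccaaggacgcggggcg
Mt2: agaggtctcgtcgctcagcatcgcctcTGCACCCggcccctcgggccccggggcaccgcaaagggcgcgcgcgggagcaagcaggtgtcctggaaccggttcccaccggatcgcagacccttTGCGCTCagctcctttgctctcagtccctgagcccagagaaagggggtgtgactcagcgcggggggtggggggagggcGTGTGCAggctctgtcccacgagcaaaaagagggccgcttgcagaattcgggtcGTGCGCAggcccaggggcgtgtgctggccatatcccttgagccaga
The Mt1 window held 3 matches and the Mt2 window 4, where 25.7% of all windows held any and 7.11% held 2 or more. Mt1 was at 42.2, 95.5 and 25.3 CPM in PCE vehicle livers, against 347, 8.85 and 162 CPM in TCE vehicle livers. Mt2 was at 15.7, 28.3 and 8.43 CPM in PCE vehicle livers and 101, 1.27 and 42.4 CPM in TCE vehicle livers. TCE vehicle 1 and 3 were again highest, but TCE vehicle 2 was the lowest of the 6, so the TCE vehicle group held both ends of the range. Their list, 18 glucocorticoid and metal responsive genes tested, did not share this order. Its median log2 deviation was -0.19, -0.36 and 0.14 in PCE vehicle 1 to 3 and -0.20, 0.06 and 0.67 in TCE vehicle 1 to 3. At an unadjusted p under 0.05, 3 of the 18 were lower in PCE vehicle livers, against 4.86% of all genes, and 0 higher. For Mt1, 5 of 23 dosed livers exceeded TCE vehicle 3 and 1 exceeded TCE vehicle 1, with a dosed maximum of 1110 CPM. In kidney the same gene was steady, at 99.8 and 87.7 CPM in PCE vehicle kidneys and 89.9, 91.3 and 79 CPM in TCE vehicle kidneys.

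Cish, a STAT5-induced feedback inhibitor of cytokine receptors that marks recent growth hormone pulses in liver, was the most variable of 27 growth hormone and male-biased genes tested. Its start region (chr9:107296409-107296708, plus strand) is shown with STAT cores TTCNNNGAA in capitals.
Cish: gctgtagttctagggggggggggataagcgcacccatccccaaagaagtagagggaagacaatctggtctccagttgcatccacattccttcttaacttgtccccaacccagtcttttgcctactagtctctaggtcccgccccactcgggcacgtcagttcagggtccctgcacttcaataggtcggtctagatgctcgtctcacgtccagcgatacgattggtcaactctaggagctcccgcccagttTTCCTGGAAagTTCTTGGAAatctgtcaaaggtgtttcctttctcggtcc
It held 2 matches, where 8.30% of all windows held any and 0.457% held 2 or more. Cish was at 20.7, 2.31 and 2.16 CPM in PCE vehicle livers, against 22.8, 1.25 and 0.771 CPM in TCE vehicle livers, so that replicate 1 of each group was high. The log2 fold change was 0.02 ± 1.22 (SE, n = 3 each, edgeR adjusted p = 0.996). Bcl6, a repressor that growth hormone and STAT5 are known to lower, had the opposite order, at 16.3, 149 and 142 CPM in PCE vehicle livers and 36.6, 134 and 111 CPM in TCE vehicle livers. Bcl6 was singled out after its values were seen. In the kidney libraries of the same numbers, too, replicate 1 of each group was highest for Cish and lowest for Bcl6. Cish was at 67.3 and 11.3 CPM in PCE vehicle kidneys 1 and 2, against 68.7, 10.6 and 10.1 CPM in TCE vehicle kidneys 1 to 3. Bcl6 was at 48.1 and 190 CPM in PCE vehicle kidneys and 55.5, 106 and 148 CPM in TCE vehicle kidneys. The labels do not say that a shared number marks a shared animal, and such likeness was not general: across 9114 genes, deviations from the group mean of same-numbered liver and kidney libraries had a Pearson r of 0.104 in the PCE vehicle pair and of 0.003, -0.29 and 0.218 in TCE vehicle 1, 2 and 3. Slower readouts of the sex-specific hormone pattern varied less: Cyp4a12a, a male-specific cytochrome, was at 1080, 946 and 1080 CPM in PCE vehicle livers and 963, 795 and 721 CPM in TCE vehicle livers, and Mup20, a major urinary protein, was at 3400, 3660 and 4730 CPM in PCE vehicle livers and 6940, 2750 and 3480 CPM in TCE vehicle livers.

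Gadd45g, a stress-inducible growth arrest gene, was at 6.68, 8.32 and 5.32 CPM in PCE vehicle livers, against 77.7, 3.45 and 22.3 CPM in TCE vehicle livers, where TCE vehicle 1 and 3 were high. In kidney it was highest in TCE vehicle 1, with 95.8 and 52 CPM in PCE vehicle kidneys and 134, 66.9 and 62 CPM in TCE vehicle kidneys.

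**Figure D3:**
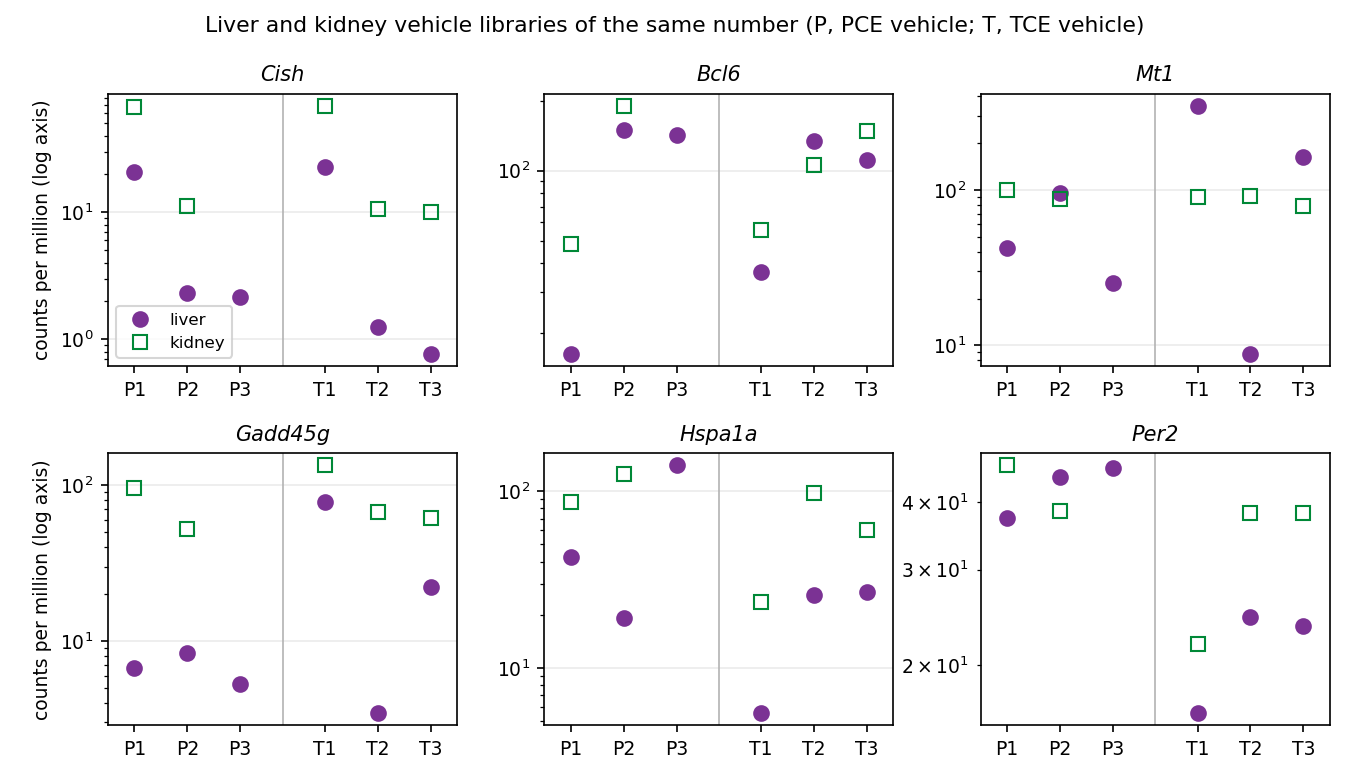
CPM on a log axis for 6 genes in vehicle livers (filled circles) and kidneys (open squares) of the same group and replicate number, PCE vehicle (P) left of TCE vehicle (T); the kidney of PCE vehicle 3 was not analysed here. Cish is highest and Bcl6 lowest in replicate 1 of each group in both tissues, while Mt1 varies in liver and lies between 79 and 99.8 CPM in kidney.

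Heat shock genes marked another library. Of 21 tested, 3 were higher in PCE vehicle livers at an unadjusted p under 0.05, against 5.17% of all genes. PCE vehicle 3 was the highest library for 15 and TCE vehicle 1 the lowest for 11, against 13.1% and 18.0% of all genes. The start region of Hspa1a, an inducible chaperone gene, (chr17:34972107-34972406, minus strand) is shown with the heat shock element core GAANNTTC in capitals.
Hspa1a: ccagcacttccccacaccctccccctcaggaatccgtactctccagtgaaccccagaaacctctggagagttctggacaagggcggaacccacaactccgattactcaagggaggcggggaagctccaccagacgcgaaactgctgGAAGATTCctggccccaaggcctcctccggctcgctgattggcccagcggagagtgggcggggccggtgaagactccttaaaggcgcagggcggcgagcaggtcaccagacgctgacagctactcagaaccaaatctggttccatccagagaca
It held 1 match, where 7.86% of all windows held any. The window is 98.7% identical base for base to the window of its neighbour Hspa1b, so reads of these copies may be split between them. Hspa1a was at 42.3, 19.1 and 140 CPM in PCE vehicle livers, against 5.56, 25.9 and 26.8 CPM in TCE vehicle livers, and Hspa1b at 120, 57.6 and 407 CPM in PCE vehicle livers and 14.6, 73.3 and 82.9 CPM in TCE vehicle livers. The extremes were 25.1-fold apart for Hspa1a and 27.9-fold for Hspa1b, and 0 of 23 dosed livers exceeded PCE vehicle 3. In kidney, too, TCE vehicle 1 was lowest for Hspa1a: 86.5 and 125 CPM in PCE vehicle kidneys and 23.5, 97.9 and 60.5 CPM in TCE vehicle kidneys. Dnajb1, a co-chaperone, did not overlap between groups, at 51.2, 37.6 and 91.9 CPM in PCE vehicle livers and 22.7, 35.3 and 31.3 CPM in TCE vehicle livers.

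Of 25 immediate early genes tested, 6 were higher without overlap in PCE vehicle livers and 2 lower, against 5.29% and 3.79% of all genes, and 0 passed the test. The AP-1 subunit gene Jun was at 132, 125 and 194 CPM in PCE vehicle livers and 45.3, 66.5 and 23.8 CPM in TCE vehicle livers. Atf3, a stress-induced repressor, was at 3.7, 5.03 and 4.75 CPM in PCE vehicle livers and 1.15, 1.87 and 0.727 CPM in TCE vehicle livers. The clock list, 17 genes tested, had a median log2 fold change of -0.02. Of the 17, 2 were higher without overlap in PCE vehicle livers and 2 lower, against 5.29% and 3.79% of all genes. The higher ones were Ciart and the period gene Per2, and Npas2 was among the lower. Per2 was at 37.3, 44.5 and 46.2 CPM in PCE vehicle livers and 16.3, 24.5 and 23.6 CPM in TCE vehicle livers. Its unadjusted edgeR p was 0.0342 and its edgeR adjusted p 0.445. In kidney Per2 was at 46.7 and 38.5 CPM in PCE vehicle samples and 21.9, 38.1 and 38.1 CPM in TCE vehicle samples, with TCE vehicle 1 lowest in both tissues. The output regulator Dbp was at 1.42, 0.88 and 0.748 CPM in PCE vehicle livers and 0.985, 0.899 and 0.727 CPM in TCE vehicle livers, and the repressor Nr1d1 was highest in PCE vehicle 2, at 51.4 CPM, and 13.1 CPM in PCE vehicle 1.

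Between the groups, the lists of fatty acid oxidation, lipogenesis and fasting had counts near the background. Within the groups, the log2 SD exceeded 1 in 6 of 39, 5 of 24 and 3 of 22 genes tested, against 5.15% of all genes. The lists had median log2 SDs of 0.50, 0.41 and 0.46, against 0.36. With length and GC trends taken out of each library the counts were 5, 4 and 1, against 4.44%. TCE vehicle 3 was the lowest library for 18 of the 39 genes of fatty acid oxidation, against 18.1% of all genes. Of 39 genes of fatty acid oxidation tested, 2 were higher in PCE vehicle livers at an unadjusted p under 0.05, against 5.17% of all genes, and 0 lower, against 4.86%. Of 24 lipogenesis genes 2 were higher and of 22 fasting genes 1, with 0 lower in either list. Cyp4a14, a PPARa-driven fatty acid hydroxylase, was at 10.4, 5.21 and 2.05 CPM in PCE vehicle livers and 1.52, 11.7 and 0.915 CPM in TCE vehicle livers. The highest vehicle liver was exceeded by 18 of 23 dosed livers, and the extremes of the vehicle livers were 12.5-fold apart. Scd1, the stearoyl-CoA desaturase of lipogenesis, was at 4470, 1880 and 3130 CPM in PCE vehicle livers and 595, 3270 and 2090 CPM in TCE vehicle livers, lowest in TCE vehicle 1. Genes higher in PCE vehicle livers without overlap were 2 of 39 for fatty acid oxidation, 2 of 24 for lipogenesis and 1 of 22 for fasting. The share over all genes was 5.29%. In each list 0 were lower without overlap, against 3.79% of all genes. The fasting gene and 1 of the lipogenesis genes are given. G0s2, an inhibitor of adipose triglyceride lipase, was at 251, 191 and 319 CPM in PCE vehicle livers and 64.1, 124 and 53.6 CPM in TCE vehicle livers, and Thrsp, a lipogenic regulator, was at 313, 377 and 530 CPM in PCE vehicle livers and 143, 164 and 177 CPM in TCE vehicle livers. The gluconeogenic gene Pck1 was at 939, 2410 and 1740 CPM in PCE vehicle livers and 1710, 1900 and 2480 CPM in TCE vehicle livers.

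PCE vehicle 2 was the highest library for markers of several cell types other than hepatocytes. Of 7 B cell markers 6 were tested, and this library was highest for 6 of 6, with a summed level of 1.64, 8.96 and 1.02 CPM in PCE vehicle livers and 2.92, 1.8 and 0.903 CPM in TCE vehicle livers. PCE vehicle 2 was also highest for 6 of 7 T and NK cell markers tested, 7 of 7 dendritic cell, 8 of 12 endothelial, 4 of 4 skeletal muscle and 2 of 2 adrenal markers tested, 17 of 26 cell cycle genes and 10 of 17 nuclear and small noncoding RNAs, and lowest for 16 of 23 replication-dependent histone genes, against 28.5% highest and 26.8% lowest over all genes. The summed cell cycle level was 107, 111 and 103 CPM in PCE vehicle livers and 107, 90.6 and 102 CPM in TCE vehicle livers. Skeletal muscle markers were low throughout, with a summed level of 2.18 CPM in PCE vehicle 2 and 0.716 to 1.58 CPM in the other livers. The noncoding RNAs had 6 members higher in PCE vehicle livers at an unadjusted p under 0.05, against 5.17% of all genes, and a median log2 fold change of 0.72. The linker histone Hist1h1c was at 30.5, 15.1 and 39.4 CPM in PCE vehicle livers and 41, 47.3 and 52.6 CPM in TCE vehicle livers.

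**Figure D4:**
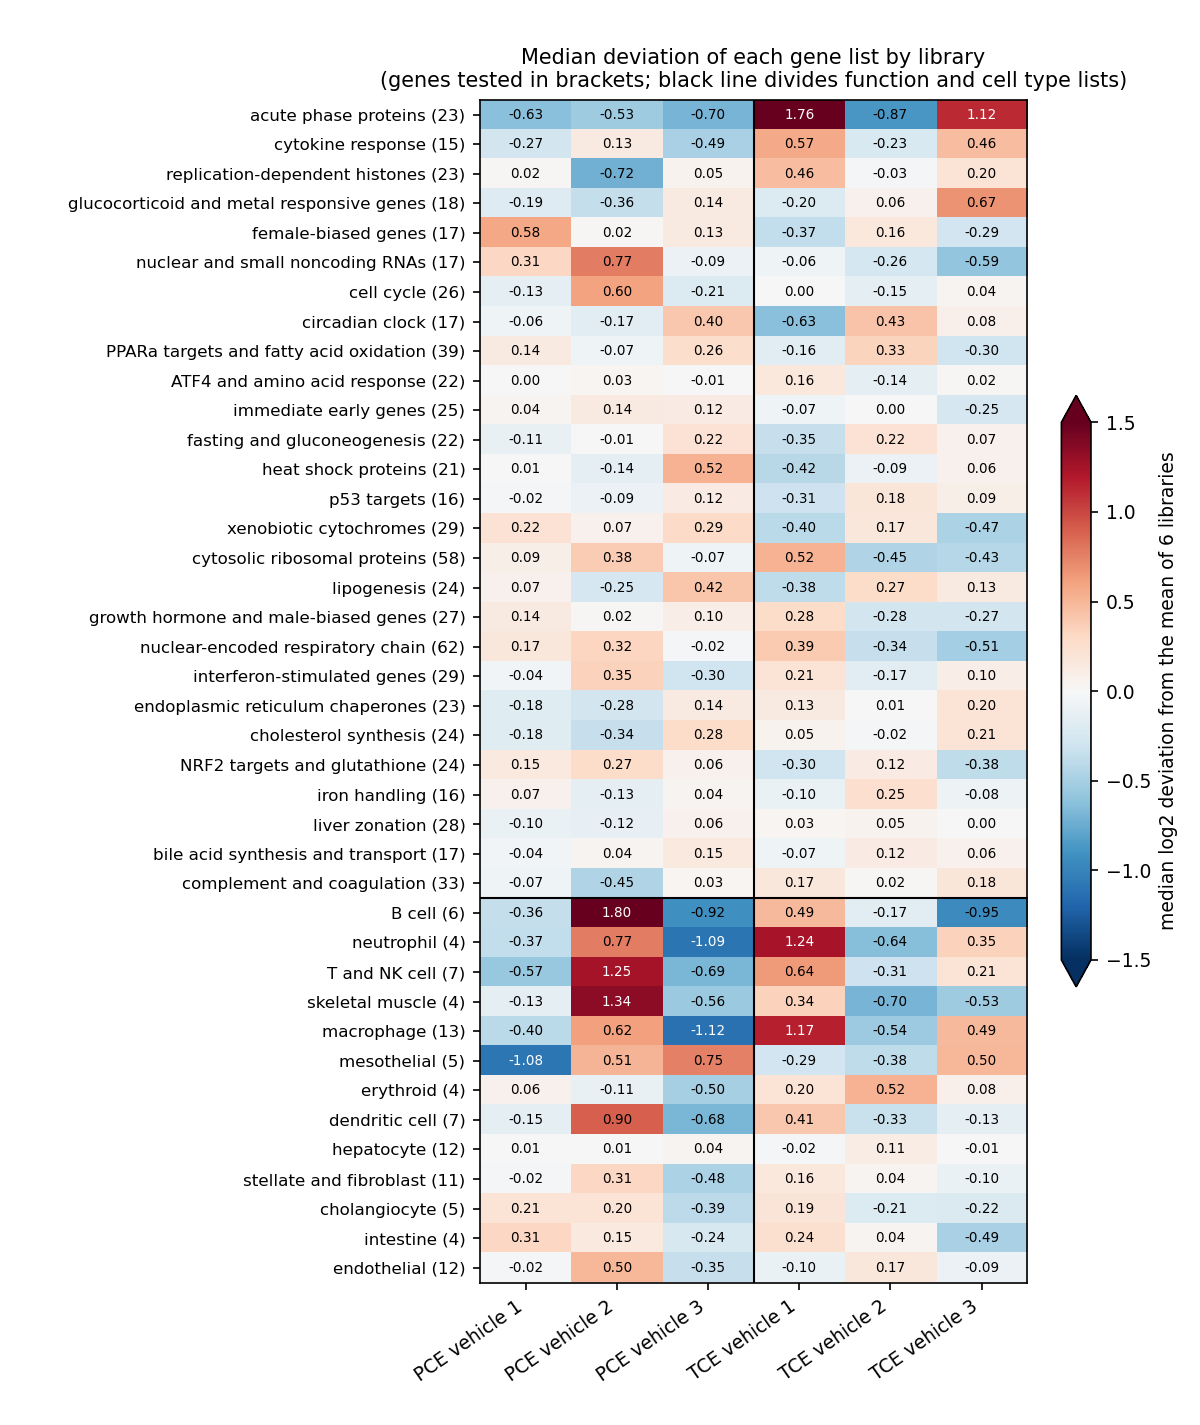
Median log2 deviation of each list's tested genes from their mean over 6 vehicle livers, by library, with PCE vehicle libraries left of TCE vehicle libraries; lists are sorted by spread within the function and cell type blocks. The acute phase row reads 1.76 and 1.12 in TCE vehicle 1 and 3 and -0.53 to -0.87 in the other 4, and B cell markers are highest in PCE vehicle 2.

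Part of the spread went with transcript length and with the number of transcripts summed. Per doubling of transcript length, log2 CPM changed by -0.063, -0.096 and 0.03 in PCE vehicle 1 to 3 and by -0.18, 0.187 and 0.18 in TCE vehicle 1 to 3, within the range of -0.142 to 0.204 seen over dosed livers but for TCE vehicle 1. PCE vehicle 2 and TCE vehicle 1, with the lowest slopes, were the lowest pair in 475 of the 677 variable genes, 70.2%, against 23.5% of all genes. Short-transcript lists showed the reverse. The 58 cytosolic ribosomal protein genes had TCE vehicle 2 and 3 as their lowest pair in 52 cases, and the 62 respiratory chain genes in 49, against 14.8% of all genes. With length and GC trends taken out of each library, the median log2 SD of the ribosomal list was 0.22 in place of 0.42, that of the respiratory list 0.22 in place of 0.40, and that of the acute phase list 0.96 both ways. Counts summed over several transcripts made up 66.6% of the variable genes and 20.7% of all genes. Acsl1, the long-chain acyl-CoA synthetase, with 2 transcripts, was at 14.3, 2.28 and 34.3 CPM in PCE vehicle livers and 2.83, 32.9 and 19.5 CPM in TCE vehicle livers. Pcx, pyruvate carboxylase, was at 5.1, 1.42 and 13.3 CPM in PCE vehicle livers and 1.35, 13.3 and 13.9 CPM in TCE vehicle livers. Hmgcs1 of cholesterol synthesis and the chaperone calnexin (Canx), also with several transcripts, had the same low libraries. With length and GC trends taken out, the log2 SD was 1.804 in place of 1.923 for Acsl1 and 1.708 in place of 1.762 for Pcx. It was 1.656 in place of 1.806 for Hmgcs1 and 1.685 in place of 1.892 for Canx. Beyond such trends, the part of length and of ambiguous reads in these genes was not tested. Over genes with 1 transcript the spread exceeded 1 in 226 of 10430, and all 10 of the variable acute phase genes are among those with 1.

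**Figure D5:**
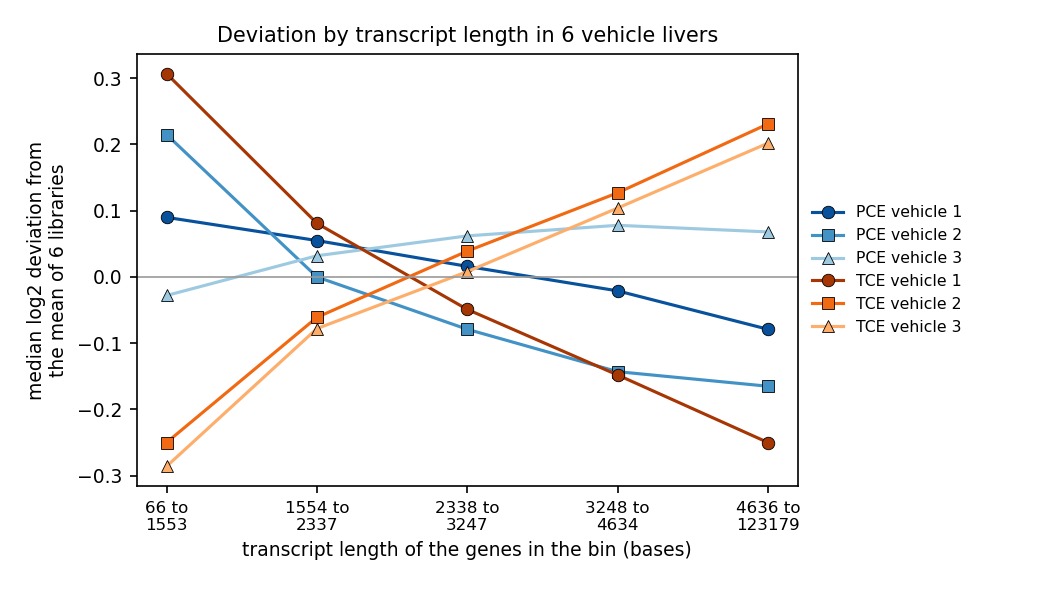
Median log2 deviation from the mean of 6 vehicle livers in 5 bins of transcript length, 1 line a library. TCE vehicle 1 and PCE vehicle 2 slope down with length, TCE vehicle 2 and 3 slope up, and PCE vehicle 1 and 3 lie between them.

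Some genes were all but constant within the groups of these 6 libraries. They were picked as the smallest log2 SDs among 5752 genes averaging 10 CPM or more, so their low values follow in part from the choice. Over the dosed liver groups the log2 SD was 0.16 for Elavl1, 0.091 for Map2k3 and 0.077 for Tpp1. Elavl1, an RNA-binding protein, was at 33.8, 34.3 and 33.6 CPM in PCE vehicle livers and 30.2, 30.9 and 30.4 CPM in TCE vehicle livers, a log2 SD of 0.017. Map2k3, a kinase of the p38 pathway, was at 81.9, 81.1 and 82.3 CPM in PCE vehicle livers and 84.4, 86.9 and 84.6 CPM in TCE vehicle livers. Tpp1, a lysosomal peptidase, was at 101, 102 and 97.7 CPM in PCE vehicle livers and 107, 109 and 109 CPM in TCE vehicle livers.

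The same contrast in kidney called 0 of 14195 genes by edgeR and 0 by DESeq2, with 1164 at an unadjusted p under 0.05 (8.20%). The liver contrast differed from the kidney one in 5 of 14927 genes (0.0335%) by edgeR's interaction test, and in 44 by DESeq2. The acute phase list had 0 genes called in that test. At an unadjusted p under 0.05, 4 of 23 were lower and 0 higher, against 8.87% of all genes in either direction. Lower alone were 598 of the 13028 genes the lists were compared with. Only 18 of the 23 were tested in kidney. The 95% interval of the log2 difference was -18.6 to 16.9 for Saa2 and -18.5 to 13.1 for Orm2. It was narrower for others, such as -2.63 to -0.338 for Lbp. For genes with wide intervals the test could not tell whether the tissues differed. For Slc13a5 the liver contrast minus the kidney contrast was -3.92 ± 0.73 (SE, log2, edgeR adjusted p = 0.0148). Its kidney values were level, at 3.35 and 3.1 CPM in PCE vehicle kidneys and 3.19, 4.02 and 2.78 CPM in TCE vehicle kidneys. The interaction count was 0 without TCE vehicle liver 1, without TCE vehicle liver 3 or without PCE vehicle kidney 1 and 47 without TCE vehicle liver 2 and 16 without TCE vehicle kidney 1.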

How the data were processed

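RNA-seq of total RNA was measured in 29 liver and 29 kidney libraries, and 6 liver vehicle libraries are described. The deposited tables hold raw counts per RefSeq transcript, 1 column a library; columns under a decimal dose were recorded under the unit expected counts and hold whole counts in the deposited tables too, so rounding changed nothing. Per the submitters' processing notes, CASAVA 1.8.2, TopHat2 2.0.10 and HTSeq were used with build mm10; no source used here gives the strand setting. The ambiguous lines held 20.04 to 22.55% and the no_feature lines 14.56 to 22.29% in the vehicle livers, and both were left out. CPM values carry no interval here beyond the spread of samples.

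From the counts, 33392 transcript rows were summed to 24035 genes by deposited symbols, or by the RefSeq gene table for 3653 rows; 126 rows stayed unnamed. R 4.3.3 with edgeR 4.0.16 (filterByExpr, TMM, robust quasi-likelihood F test, 10 liver groups in 1 fit without covariates, Benjamini-Hochberg) gave the tests, and DESeq2 1.42.0 an alternative. The interaction test used 1 fit of all 58 libraries, in which both tissues shared the spread of each gene. Spread is the SD of log2 CPM with a prior count of 2. The script was tested on simulated data. Lists of 27 functions and 20 cell types, the members and the rule for naming genes (the 10 of smallest p in each direction among genes averaging 1 CPM or more and without predicted names, the 20 most and 10 least variable at 10 CPM or more, the extremes of each function list, and a fixed set) were chosen with earlier results of these data known. Bcl6, Clec4f, Cp, Crp, Cyp2c54, Cyp3a13, Dnajb1, Fgb, Gsta2, Hist1h1c, Hpx, Itih4, Jun, Serpina3m, Serpina3n and Socs3 fall outside that rule and were named after their values were seen. Replicate numbers were not used as pairs, and the closing section gives that check.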

Additional observations from a re-analysis of the deposited data

Results flagged for a closer look

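In 5 genes the difference between the vehicle groups, PCE over TCE, was not the same in liver and kidney by edgeR's interaction test over 14927 genes. That test used 1 estimate of the spread of each gene for both tissues. The median log2 SD was 0.355 in vehicle livers and 0.159 in vehicle kidneys, so a shared estimate can understate the spread of liver. In the liver contrast alone the edgeR adjusted p of these genes was 0.0713 to 0.15. For Chpt1, of phosphatidylcholine synthesis, the liver contrast minus the kidney contrast was 1.41 ± 0.26 (SE, log2, edgeR adjusted p = 0.0148), with 61.5, 41.2 and 55.3 CPM in PCE vehicle livers against 26, 29.6 and 21.9 CPM in TCE vehicle livers, and 711 and 877 CPM in PCE vehicle kidneys against 1130, 1010 and 996 CPM in TCE vehicle kidneys. For the complement gene C2 it was -1.03 ± 0.19 (edgeR adjusted p = 0.0148), with 174, 145 and 179 CPM in PCE vehicle livers against 259, 193 and 242 CPM in TCE vehicle livers, and 94.4 and 77.3 CPM in PCE vehicle kidneys against 48.2, 63.1 and 65.5 CPM in TCE vehicle kidneys. The groups of both genes lay in opposite order in the 2 tissues without overlap. The Chpt1 count is a sum over 3 transcripts.

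For the citrate importer Slc13a5 it was -3.92 ± 0.73 (edgeR adjusted p = 0.0148), with 0.348, 0.572 and 0.481 CPM in PCE vehicle livers against 10.9, 0.66 and 9.96 CPM in TCE vehicle livers and level kidneys. For Slc39a1, a zinc importer, it was -0.88 ± 0.17 (edgeR adjusted p = 0.0169), with 68.4, 56.1 and 69.1 CPM in PCE vehicle livers against 120, 95.2 and 115 CPM in TCE vehicle livers. For the predicted gene Gm14295 it was 1.29 ± 0.26 (edgeR adjusted p = 0.039), with 12.2, 10.2 and 10.9 CPM in PCE vehicle livers against 4.21, 6.01 and 4.34 CPM in TCE vehicle livers. Over 18 settings, the main one included, the call was made in 12 for Chpt1, 13 for C2, 10 for Slc13a5, 10 for Slc39a1 and 7 for Gm14295.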

How the results depend on the processing

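The liver contrast, with 0 genes called by edgeR, had 139 called by DESeq2, and 14 where covariates for length and GC slope were added. Leaving out a replicate gave 0 to 97 genes, with 97 without TCE vehicle 2 and 13 without PCE vehicle 1. The other settings, among them no filter on low counts, DESeq2's size factors and vehicle libraries alone, gave 0. The 5 genes of the tissue difference were 44 by DESeq2, 0 with vehicle libraries alone and 0 to 47 on leaving out a replicate. The 677 genes of log2 SD above 1 were 84 at a mean of 10 CPM or more. Further alternatives were chosen after seeing the data: that count was 145 without the 2 libraries of lowest length slope, 576 of 12969 with length and GC trends removed, and 226 of 10430 over genes with 1 transcript. Replicate numbers were not shown to pair the livers, since same-numbered deviations had a Pearson r of -0.174, -0.472 and 0.54, and not every liver correlated best with its own number. With the replicate block 0 genes were called in liver and 5 in the tissue difference, and 0 in that test with title numbers as a block across tissues, also chosen after seeing the data. No result reversed. Of single-gene results, 1823 kept their side of the threshold or their value, 55 passed the threshold only under the alternative and 39 moved by more than the spread. The cause of these changes was not tested. Depth was not varied. With 3 libraries a group, an exact permutation test of a single value cannot go below p = 0.1.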
